A study of Mus musculus with 9 samples.

Results

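The genes of the respiratory chain and of ATP synthase were taken from the expression table by symbol. Symbols beginning with Nduf, Sdha to Sdhd, Uqcr, Cox4 to Cox8, Atp5, mt-Nd, mt-Co, mt-Atp or mt-Cytb were kept, the complex I assembly factors (Ndufaf) were not, and of the 113 symbols that matched, 7 were dropped as pseudogenes by name and 4 as assembly factors of complex II (Sdhaf1 to Sdhaf4). This left 102 genes of the 37980 in the table, 89 in the nuclear genome and 13 in mitochondrial DNA. Of these, 96 had any count and 90 passed the filter on low counts, against 11953 genes in all.

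RNA was measured by sequencing in myeloid progenitors (MPs), sorted as Lin-ckit+Sca1- cells from the bone marrow of irradiated C57BL/6 recipients, with 100000 cells in each sample. The 4 NA MP samples came from recipients of multipotent progenitors (MPPs) that carried the Nup98-Hoxa10hd fusion gene (NA), and the 5 WT MP samples from recipients of WT MPPs. By the study's methods the donors were NA LSL/+; Vav-Cre mice, in which Vav-Cre, active in blood cells, switches on the fusion. NA MPs were sorted as Tdtomato+ cells and WT MPs as CD45.2+ cells, 3 months post transplantation per the labels and a month later per the study's methods. The gates thus rested on different marks in the groups. The study's methods also give the recipients as CD45.2+, while its figures name another CD45 form for WT donor cells. Whether all WT MPs came from the donor cannot be told from these sources. No label says how many mice gave a sample, so the p-values measure only the spread between these samples. That spread was small, with a biological coefficient of variation (spread beyond counting error) of 3.49%, so small fold changes could pass. Whether the samples of a group came from separate mice is not known.

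Mitochondria make most of a cell's ATP by passing electrons from NADH and succinate along complexes I to IV, which pump protons that ATP synthase, or complex V, then uses. Complexes I, III, IV and V are built from subunits of both genomes, while complex II is encoded in the nucleus alone. The mitochondrial genes are transcribed as long RNAs from each strand and then cut apart, so the amounts of the single RNAs also depend on processing and decay. Blood stem cells are known to rely little on this pathway, and its use rises as progenitors commit.

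The deposited values were RSEM expected counts scaled by a factor for each sample. Dividing the factor out gave 5557718 to 8106140 counts per sample. Nup98 (log2 fold change 0.68 ± 0.048 SE) and Hoxa10 (3.96 ± 0.17), the genes joined in the fusion, were both higher in NA MPs, with non-overlapping groups. Of the 11 myeloid progenitor markers all passed the filter, and Mpo averaged 108905 normalized counts in NA MPs. The list itself moved, with 7 markers higher and 1 lower, beside 17.9% and 16.3% of all tested genes. Fcgr3 (-0.57), Flt3 (0.42) and Prtn3 (0.20) were among them. A fit with terms for GC content and exon length gave 4 higher and 3 lower, beside 14.0% and 22.5% of genes. In that fit Fcgr3 (-0.64) and Flt3 (0.40) kept their calls, Prtn3 (0.02) did not, and Elane went from 0.08 to -0.09. The part of this list in the results on respiratory chain genes was not tested. Among the genes that the gate excludes, Cd3e had no counts and Ly6g averaged 1.63 in NA MPs, while Itgam averaged 513 in NA MPs and 420 in WT MPs. In bulk RNA of sorted cells, fewer cells of a type and less RNA per cell cannot be told apart.

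Respiratory chain transcripts differed by small amounts between NA MPs and WT MPs, and how many were lower depended on the fit. With edgeR, adjusting over all tested genes at a threshold of 0.05, 3 members were higher in NA MPs (Ndufa13, Cox7a2l and Ndufv3) and 12 were lower (mt-Nd3, mt-Nd2, mt-Nd5, mt-Cytb, Sdhd, Sdha, Atp5g3, Ndufs1, Atp5b, Atp5g1, Cox7b and Atp5a1), while 75 did not pass. The 3 are 3.33% of the tested members, against a background of 17.9% of all tested genes that were higher, and the 12 are 13.3%, against 16.3% that were lower. In either direction 16.7% of the members passed, against 34.1% of all tested genes. Fold changes of members were small, running from -0.35 to 0.30 on the log2 scale, and 75.6% of members lay within 0.1 of no change, against 42.8% of all tested genes. These backgrounds were not matched to the members for expression level, and genes with few counts have wider errors. The median log2 fold change was -0.04 in the 78 tested nuclear members and -0.10 in the 12 tested mitochondrial members, beside -0.00 over all tested genes. In 11 members, 4 higher and 7 lower, the values of the groups did not overlap, which is 12.2%, against 26.4% of all tested genes.

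**Figure D1:**
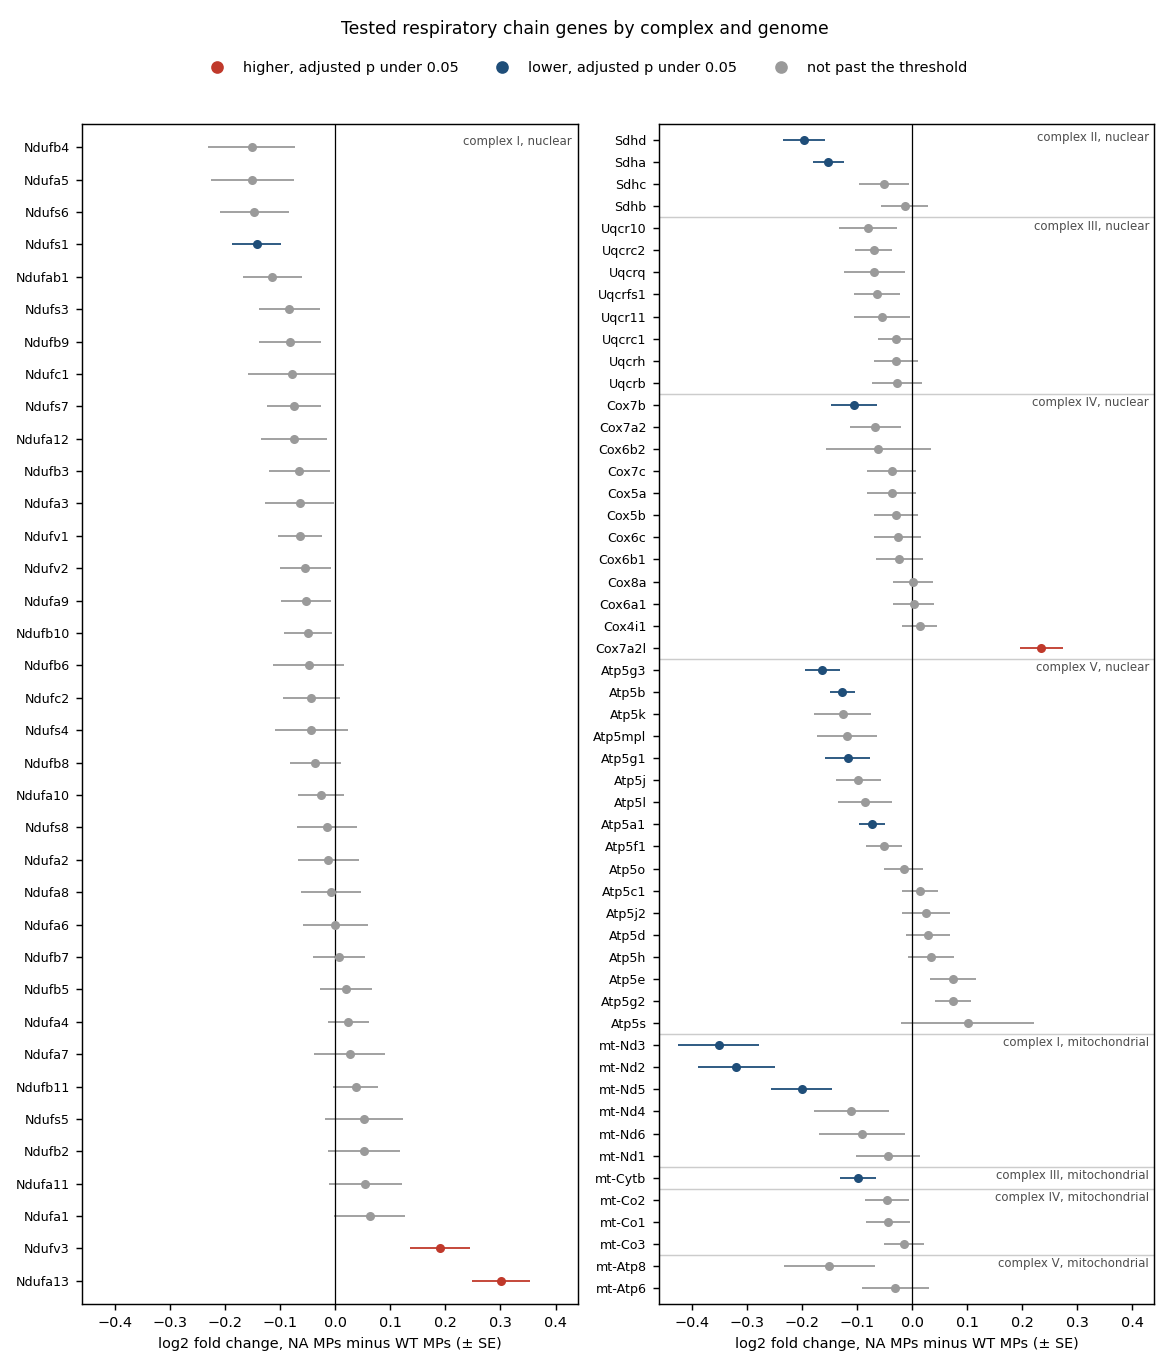
Log2 fold change of 89 of the 90 tested members (NA MPs minus WT MPs, x axis, bars ± SE), grouped by complex and by the genome that encodes the subunit. Red and blue points passed an adjusted p of 0.05 in the direction shown, and grey points did not. Most points lie within 0.1 of no change, and mt-Nd3 and Ndufa13 are the extremes.

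These counts depended on whether GC content and exon length entered the fit. Those terms were fitted with a constant for each sample, which also re-centred the sample on its mean over genes. With smooth terms for both in each sample, 1 member was higher (Cox7a2l, against a background of 14.0% of genes) and 48 were lower (53.3% of members, against 22.5% of genes), and the medians were -0.12 for nuclear and -0.12 for mitochondrial members beside -0.04 over all genes. Members within 0.1 of no change were then 37.8%, against 42.9% of all genes, so the larger share of members near no change was not seen in that fit. Over all genes the same terms turned 2134 higher and 1944 lower calls into 1621 and 2609. How much of these shifts came from the constant was not tested. In the fit without them, the median log2 fold change of all tested genes ran from -0.05 in the lowest of 4 equal bins of GC content to 0.07 in the highest, and from 0.04 in the shortest of 4 bins of exon length to -0.04 in the longest. Short transcripts predominated among the members, since 59 of the 78 nuclear and all 12 mitochondrial members lay in the shortest bin. Nuclear members had a median GC content of 50.3%, close to the 50.1% of all tested genes, and mitochondrial members 36.5%. The directions of Sdhd, Sdha, Atp5g3, Atp5b, Atp5g1, Atp5a1, Cox7b, mt-Nd2, mt-Nd3, mt-Nd5, mt-Cytb and Cox7a2l and their calls were kept in both fits, whereas Ndufa13, Ndufv3 and Ndufs1 did not pass with the terms. Ndufs1 passed where a replicate block was added to them (-0.11, edgeR adjusted p = 0.03).

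**Figure D2:**
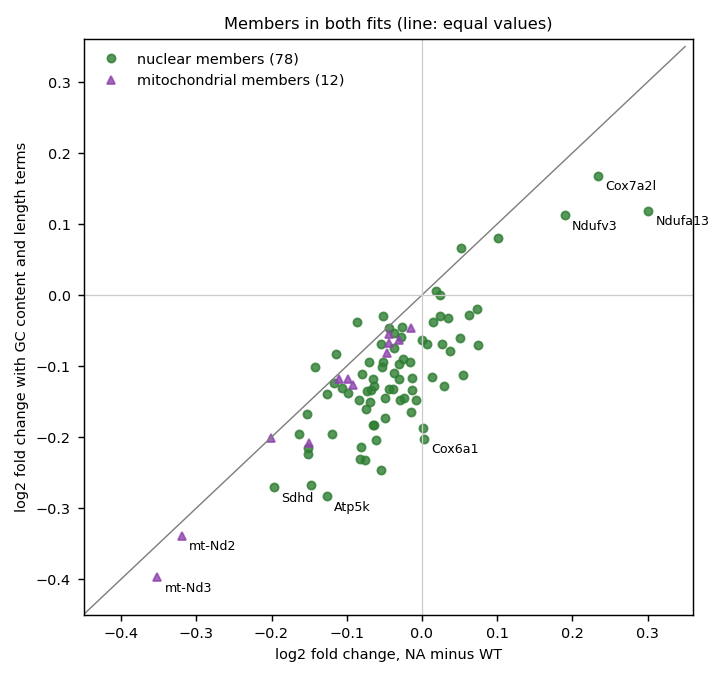
Log2 fold change of the 90 tested members without (x axis) and with (y axis) terms for GC content and exon length in the fit. Each point is a nuclear gene, each triangle a mitochondrial one, and the line marks equal values. Most points lie below the line, Cox7a2l moved from 0.23 to 0.17, and mt-Nd3 and mt-Nd2 remained the lowest.

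Complex I takes electrons from NADH. Its 7 mitochondrial subunits form the membrane core of the proton pump, and 3 of the 6 tested were lower in NA MPs. The transcript of mt-Nd3 (chrM:9459-9806, mm10) had normalized counts of 1359, 1123, 1420 and 1450 in NA MPs and of 1596, 1715, 1682, 1789 and 1757 in WT MPs. All 4 NA samples lay below all 5 WT samples. The difference was -0.35 ± 0.074 (log2, SE; edgeR adjusted p = 0.00615), the strongest fall among the members.

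For mt-Nd2 the counts were 6953, 5957, 7057 and 7688 in NA MPs and 8158, 8722, 8789, 8775 and 8713 in WT MPs. The groups again did not overlap, and the difference was -0.32 ± 0.070 (edgeR adjusted p = 0.00942). Both calls held when any single sample was left out.

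The largest of these subunits, mt-Nd5, had 11936, 11518, 12422 and 13710 counts in NA MPs and 13219, 14671, 14582, 14320 and 14492 in WT MPs. NA MP replicate 4 lay above WT MP replicate 1, so the groups overlapped, and the difference was -0.20 ± 0.055 (edgeR adjusted p = 0.0244). That call was lost when NA MP replicate 1 or 3, or WT MP replicate 3 or 5, was left out, with log2 fold changes from -0.25 to -0.17 over the 9 fits. The gene's end overlaps mt-Nd6 on the opposite strand, and the library kit does not mark strand, so their reads cannot be told apart there.

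The other mitochondrial genes of complex I did not pass. Log2 fold changes were -0.11 for mt-Nd4, -0.09 for mt-Nd6, which alone is read from the other strand, and -0.04 for mt-Nd1. With GC content and length in the fit mt-Nd6 was lower (-0.13, edgeR adjusted p = 0.00616). mt-Nd4l, which overlaps mt-Nd4 (121581 counts) on the same strand, had 6 counts over all 9 samples and was not tested. A nuclear pseudogene, Gm10222, matches it at 100% over 294 bases and had 1 count, so reads of the pair cannot be assigned with certainty.

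Cytochrome b, the mitochondrial subunit of complex III that passes electrons from coenzyme Q, was measured as mt-Cytb. Its counts were 20913, 19493, 21950 and 22409 in NA MPs and 21751, 23314, 22646, 22873 and 22831 in WT MPs. The groups overlapped through NA MP replicates 3 and 4 and WT MP replicate 1. The difference of -0.10 ± 0.033 passed narrowly (edgeR adjusted p = 0.0297), and did not pass when NA MP replicate 1 or 2, or WT MP replicate 2, 3, 4 or 5, was left out (log2 fold changes from -0.13 to -0.06 over the 9 fits, the latter without NA MP replicate 2) or with limma on the deposited values.

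The catalytic core of complex IV, cytochrome c oxidase, showed no call. Log2 fold changes were -0.05 for mt-Co2, -0.04 for mt-Co1 and -0.01 for mt-Co3. The complex V genes mt-Atp8 and mt-Atp6 had values of -0.15 and -0.03 and did not pass either. With GC content and length in the fit mt-Atp8 was lower (-0.21, edgeR adjusted p = 0.0343).

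All 12 tested mitochondrial members had a log2 fold change below 0, and 4 passed (33.3%, against the background of 16.3%). When NA MP replicate 2 was left out, mt-Nd1, mt-Co3 and mt-Atp6 were at 0.01, 0.02 and 0.03. Their share of a library's counts was 2.72%, 2.53%, 2.85% and 2.97% in NA MPs and 2.83%, 3.01%, 2.97%, 3.00% and 3.01% in WT MPs. The groups overlapped, with means of 2.77% ± 0.19 (SD, n = 4) and 2.97% ± 0.076 (SD, n = 5), a difference of -0.20 percentage points. Leaving out NA MP replicate 2, which had the lowest value of the NA samples in all 12, narrowed it to -0.12 percentage points and the median log2 fold change of the mitochondrial members to -0.05.

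Within the mitochondrial RNA the balance between subunits also differed. The mt-Nd genes made up 25.3%, 24.9%, 25.2% and 26.0% of the mitochondrially encoded counts in NA MPs and 26.1%, 27.0%, 27.1%, 26.9% and 26.9% in WT MPs. The mt-Co genes made up 59.6%, 60.1%, 59.7% and 59.0% in NA MPs and 58.7%, 57.6%, 57.8%, 57.9% and 57.9% in WT MPs. All NA samples lay below all WT samples in the share of mt-Nd genes and above them in that of mt-Co genes. These shares are a description without a test, and a rise in a share can come from a fall elsewhere.

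**Figure D3:**
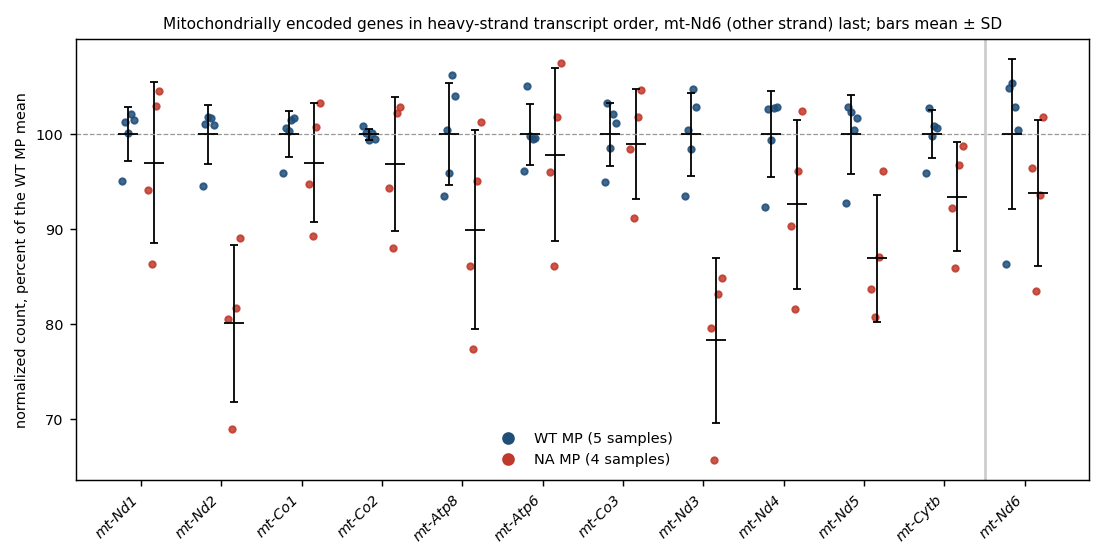
Normalized counts of the 12 tested mitochondrial genes as a percent of the WT MP mean (y axis), in their order along the heavy-strand transcript, with mt-Nd6 of the other strand last. Each point is a sample and bars give the mean ± SD. The NA samples of mt-Nd2 and mt-Nd3 lie below all WT samples, while genes next to them in the order, such as mt-Nd1, mt-Co1 and mt-Co3, have overlapping groups.

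The ribosomal RNAs of mitochondria come from the same strand and are no members. mt-Rnr1 was higher in NA MPs (0.25 ± 0.058, edgeR adjusted p = 0.00138, 660 ± 79 against 557 ± 9.3 normalized counts), though NA MP replicate 2 (557) lay among the WT samples. mt-Rnr2 was at 0.01 ± 0.12 and did not pass, an error wide enough to hold the median of the mitochondrial members. The labels name polyA RNA as the molecule, so both are measured only as far as they were captured.

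In the nucleus, complex I had 37 tested subunits. Of these, 2 were higher (5.41%, against 17.9% of all tested genes) and 1 lower (2.70%, against 16.3%). With GC content and length in the fit, 0 were higher (against 14.0% of genes) and 16 lower (43.2%, against 22.5%). The accessory subunit Ndufa13, also known as a cell death regulator (Grim-19; chr8:69894180-69902558), had the strongest rise of all members. Its counts were 484, 532, 535 and 447 in NA MPs and 403, 401, 414, 409 and 394 in WT MPs. Every NA sample lay above every WT sample, and the difference was 0.30 ± 0.053 (edgeR adjusted p = 7.78e-06). With GC content and length in the fit it was 0.12 (edgeR adjusted p = 0.0563). Ndufa13 overlaps Tssk6 on the opposite strand, which averaged 30.0 normalized counts in NA MPs and 46.2 in WT MPs.

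Ndufv3, an accessory subunit of the part that binds NADH (chr17:31520115-31531331), had counts of 385, 398, 425 and 388 in NA MPs and 356, 358, 329, 372 and 332 in WT MPs. The groups did not overlap, and the difference was 0.19 ± 0.055 (edgeR adjusted p = 0.00535), or 0.11 (edgeR adjusted p = 0.0934) with GC content and length in the fit.

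Ndufs1, the largest core subunit, which carries iron-sulphur clusters (chr1:63143596-63176833), had counts of 826, 732, 696 and 847 in NA MPs and 881, 865, 842, 853 and 850 in WT MPs. NA MP replicates 2 and 3 were lowest, and replicate 4 fell among the WT samples. The difference was -0.14 ± 0.044 (edgeR adjusted p = 0.01), and it did not pass without NA MP replicate 2 or without replicate 3. Its gene overlaps Eef1b2, a gene with 6100 normalized counts in NA MPs and 5724 in WT MPs, on the opposite strand.

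The other 34 tested nuclear subunits of complex I had log2 fold changes from -0.15 (Ndufb4) to 0.06 (Ndufa1). They include the core subunits Ndufs3, Ndufs7, Ndufs8, Ndufv1 and Ndufv2, which lay between -0.08 and -0.01 and did not pass. Of these, all but Ndufv2 were lower with GC content and length in the fit.

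Complex II, which oxidises succinate and is also an enzyme of the citric acid cycle, had 4 subunits, of which 2 were lower and 0 higher, against 3 lower and 0 higher with GC content and length in the fit. Sdha, the flavoprotein that holds the active site (chr13:74322254-74350280), had counts of 2378, 2447, 2475 and 2364 in NA MPs and 2673, 2658, 2783, 2659 and 2648 in WT MPs. Its difference was -0.15 ± 0.029 (edgeR adjusted p = 2.8e-05). Sdhd, a membrane anchor (chr9:50596357-50603812), had counts of 1059, 1037, 1030 and 992 in NA MPs and 1300, 1160, 1138, 1167 and 1130 in WT MPs, a difference of -0.20 ± 0.038 (edgeR adjusted p = 4.79e-05).

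In both genes all NA samples lay below all WT samples, and both calls held in every fit that left a sample out. Sdhc, the other anchor, and Sdhb, the iron-sulphur subunit, had values of -0.05 and -0.01 and did not pass. Sdhb was lower with GC content and length in the fit (-0.12, edgeR adjusted p = 0.0193). The median of the complex was -0.10.

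None of the 8 nuclear subunits of complex III passed, against 34.1% of all tested genes. All 8 had a log2 fold change below 0, from -0.08 (Uqcr10) to -0.03 (Uqcrb). With GC content and length in the fit, 7 of the 8 were lower (87.5%, against 22.5% of genes), with a median of -0.12. Cyc1, the cytochrome c1 subunit whose symbol the rule does not take, was lower (-0.19 ± 0.040, edgeR adjusted p = 0.000125) with non-overlapping groups. It was named after its values were seen.

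Complex IV had 12 tested nuclear subunits. Of these, 1 was higher (8.33%, against 17.9% of all tested genes) and 1 lower (8.33%, against 16.3%). With GC content and length in the fit, 1 was higher (8.33%, against 14.0% of genes) and 7 lower (58.3%, against 22.5%). Cox7a2l, which is related to the Cox7a subunits and is known as a factor that joins complexes III and IV (chr17:83501918-83517330), had counts of 1058, 971, 960 and 1020 in NA MPs and 825, 879, 838, 875 and 838 in WT MPs. Every NA sample exceeded every WT sample, and the difference was 0.23 ± 0.039 (edgeR adjusted p = 2.29e-06). It was the only member that stayed higher with GC content and length in the fit (0.17, edgeR adjusted p = 0.000208).

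Cox7b, a small subunit (chrX:106015700-106022450), had counts of 736, 819, 791 and 768 in NA MPs and 850, 855, 786, 873 and 828 in WT MPs. The groups overlapped, and the difference of -0.11 ± 0.041 was just past the threshold (edgeR adjusted p = 0.0403). It did not pass in DESeq2 (adjusted p = 0.116) or without NA MP replicate 1, 3 or 4 or WT MP replicate 1, 2 or 4, with log2 fold changes from -0.13 to -0.08 over the 9 fits. The 10 other tested subunits ranged from -0.07 (Cox7a2) to 0.01 (Cox4i1).

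In complex V, 17 nuclear members were taken by symbol, Atp5s among them. Of these, 4 were lower (23.5%, against 16.3% of all tested genes) and 0 higher in edgeR. With GC content and length in the fit, 9 were lower (52.9%, against 22.5% of genes) and 0 higher. Atp5b, the catalytic beta subunit (chr10:128083273-128090391), had counts of 8394, 8521, 8512 and 8411 in NA MPs and 9294, 9312, 9090, 9301 and 9189 in WT MPs. The groups did not overlap, and the difference was small against its precise replicates, at -0.13 ± 0.023 (edgeR adjusted p = 1.68e-05).

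Its partner in the catalytic head, the alpha subunit Atp5a1, had counts of 7147, 7352, 7135 and 7135 in NA MPs and 7677, 7520, 7503, 7565 and 7554 in WT MPs. NA MPs were lower in all 4 samples, by 0.07 ± 0.024 on the log2 scale (edgeR adjusted p = 0.0145). Its gene overlaps Haus1 on the opposite strand, at 226 normalized counts in NA MPs and 213 in WT MPs.

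Atp5g1, Atp5g2 and Atp5g3 encode the same mature c subunit of the rotor ring, with different import sequences. Atp5g3 (chr2:73908447-73911326) had counts of 1440, 1424, 1474 and 1488 in NA MPs and 1647, 1610, 1628, 1649 and 1629 in WT MPs, a difference of -0.16 ± 0.032 (edgeR adjusted p = 4.03e-05). Atp5g1 (chr11:96068852-96075670) had counts of 771, 800, 762 and 776 in NA MPs and 844, 902, 794, 852 and 819 in WT MPs, a difference of -0.12 ± 0.041 (edgeR adjusted p = 0.0216). Atp5g3 had non-overlapping groups, while Atp5g1 overlapped through NA MP replicate 2 and WT MP replicate 3.

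The call of Atp5g1 was lost in DESeq2 (adjusted p = 0.0739) and without NA MP replicate 3 or WT MP replicate 2. Atp5g2 had counts of 1285, 1310, 1325 and 1298 in NA MPs and 1220, 1235, 1273, 1237 and 1230 in WT MPs. All NA samples lay above all WT samples, yet its value of 0.07 ± 0.033 did not pass (edgeR adjusted p = 0.08) and was -0.07 with GC content and length in the fit.

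**Figure D4:**
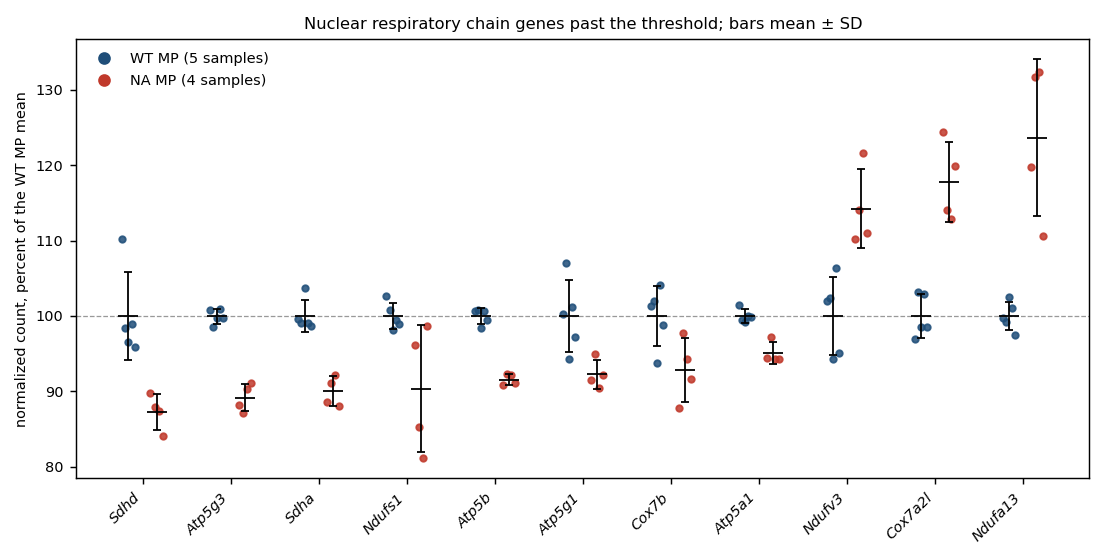
Normalized counts of the 11 nuclear members past the threshold, as a percent of the WT MP mean (y axis). Each point is a sample and bars give the mean ± SD. The 3 members on the right were higher and the 8 on the left lower in NA MPs, with overlapping groups for Ndufs1, Atp5g1 and Cox7b.

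Levels were compared between genes only per length, as normalized counts per kb of the principal transcript. In WT MPs the 12 tested mitochondrial genes ranged from 4908 per kb (mt-Nd3) to 43628 per kb (mt-Co1). Nuclear subunits reached at most 4821 per kb (Atp5b), and the median per kb in WT MPs was 468 in complex I, 774 in complex II, 1061 in complex III, 1075 in complex IV and 1230 in complex V. The order of these medians was the same in NA MPs, at 465, 725, 1021, 1048 and 1130 per kb. Reads from nuclear copies of mitochondrial DNA were few, since the annotated copy of mt-Co1 had 360 counts over all samples against 600075 for the gene.

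Several subunits exist as forms for particular tissues, and the MPs used the general ones. Cox4i1 held 99.6% ± 0.13 (SD, n = 4) of the family's level per kb in NA MPs, against 99.6% ± 0.16 (SD, n = 5) in WT MPs, beside the lung form Cox4i2. Cox6a1 held 99.5% ± 0.30 and 99.8% ± 0.10, beside the heart and muscle form Cox6a2. Cox8a took all counts of its family, and Cox7b all of its own, with 0 counts for Cox8b, Cox8c and Cox7b2.

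Cox6b2, known as the form of the testis, was present beside Cox6b1, at 12.5% ± 1.0 of the family's level per kb in NA MPs and 12.7% ± 0.74 in WT MPs, and passed the filter. Ndufa4 held over 99% of its pair with Ndufa4l2, which had 6 counts in all samples, and the muscle form Cox7a1 had 10. The general forms of complex IV had similar counts in both groups. Cox4i1 had counts of 1881, 1874, 1907 and 1879 in NA MPs and 2016, 1836, 1785, 1892 and 1815 in WT MPs (0.01 ± 0.032, log2, SE). Cox6a1 had counts of 1087, 1215, 1125 and 1064 in NA MPs and 1182, 1118, 1111, 1080 and 1111 in WT MPs (0.00 ± 0.038). Cox8a had counts of 1430, 1577, 1483 and 1419 in NA MPs and 1597, 1449, 1463, 1441 and 1434 in WT MPs (0.00 ± 0.036).

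In each of the 3 the groups overlapped and the edgeR test did not pass. Cox6b1 had counts of 806, 762, 861 and 798 in NA MPs and 888, 788, 795, 815 and 814 in WT MPs (-0.02 ± 0.042). Its testis form Cox6b2 had counts of 124, 98.1, 107 and 106 in NA MPs and 112, 117, 105, 113 and 117 in WT MPs (-0.06 ± 0.095). Ndufa4, which was first described as part of complex I and is now known to belong to complex IV, had counts of 1016, 1029, 1042 and 972 in NA MPs and 1015, 1012, 940, 1014 and 1003 in WT MPs (0.02 ± 0.037).

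These did not pass either, and their groups overlapped, as did those of Cox7a2, with 557, 527, 557 and 511 in NA MPs and 592, 568, 547, 556 and 547 in WT MPs (-0.07 ± 0.047). With GC content and length in the fit, Cox4i1 (-0.11), Cox6a1 (-0.20) and Cox8a (-0.19) were lower, on the other side of 0. Cox6b1 (-0.15) and Cox7a2 (-0.13) were also lower in that fit, while Cox6b2 and Ndufa4 did not pass.

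Within the Cox7a family, Cox7a2l took 53.7%, 52.9%, 51.4% and 54.7% of the level per kb in NA MPs and 46.0%, 48.4%, 48.4%, 49.1% and 48.4% in WT MPs. Cox7a2 held nearly all of the rest, and the groups did not overlap. Within the Atp5g family, Atp5g3 took 50.9%, 50.1%, 50.8% and 51.5% in NA MPs and 55.2%, 54.2%, 54.1%, 54.9% and 54.8% in WT MPs. Atp5g2 took 44.9%, 45.6%, 45.2% and 44.4% in NA MPs and 40.5%, 41.1%, 41.8%, 40.7% and 40.9% in WT MPs, so the share was higher in every NA sample.

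The share of Atp5g1 was 4.16% ± 0.12 in NA MPs and 4.33% ± 0.22 in WT MPs. It rests on an annotated principal transcript of 4715 bases, against 731 bases for Atp5g2 and 723 bases for Atp5g3. These shares are descriptions without a test.

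**Figure D5:**
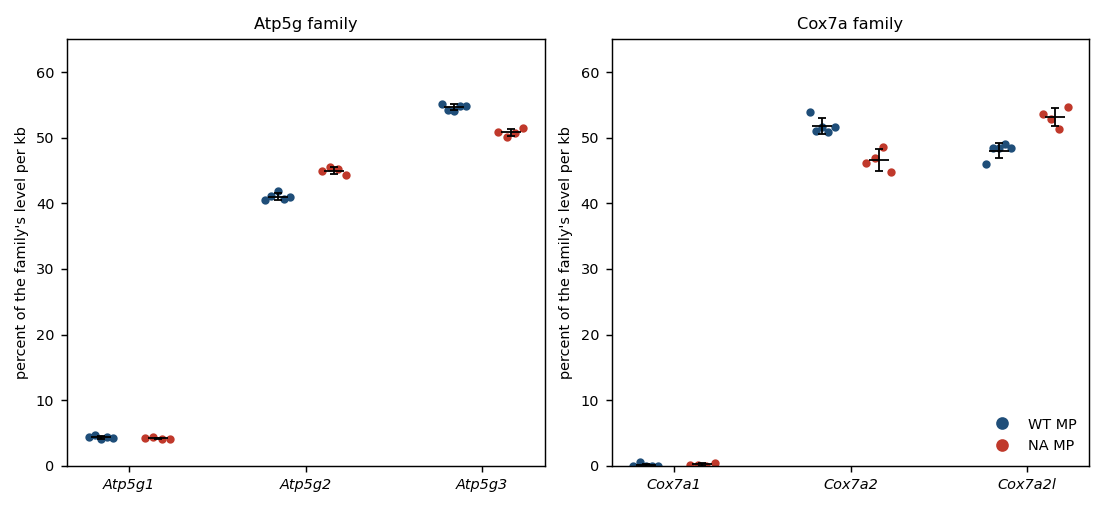
Share of the family's level per kb (percent, y axis) taken by each gene of the Atp5g family, left, and of the Cox7a family, right. Points are samples and bars give the mean ± SD. Atp5g2 and Cox7a2l took a larger share in each NA sample than in any WT sample.

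The 12 members that were not tested were mt-Nd4l, Cox4i2, Cox6a2, Cox6c2, Cox7a1, Cox7b2, Cox8b, Cox8c, Ndufa11b, Ndufa4l2, Ndufb4c and Ndufs6b. Of these, 6 had no count in any sample (Cox6c2, Cox7b2, Cox8b, Cox8c, Ndufa11b and Ndufs6b). A count of 0 allows up to 3 counts in a library, or from 0.370 to 0.540 CPM here, for counting error only. Ndufb4c is annotated as a processed copy of Ndufb4 with near-identical sequence, so its 49 counts cannot be assigned with certainty.

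Nuclear respiratory genes are known to share promoter sites for the factors NRF1, GABP and YY1. Promoters from RefSeq (GRCm38.p6, 250 bases before to 50 after the start) were at hand for 67 of the 89 nuclear members. On either strand, the NRF1-like pattern CGCANGCGC was in 23 of the 67 (34.3%) and in 6.31% of all 32851 promoters. The GABP-like pattern CCGGAAGT was in 7.46% against 3.89%, and the YY1-like pattern AAGATGGCG in 10.4% against 1.40%. The shares of members count genes, while the others count promoters. Those promoters were not matched to the members for expression or GC content. None of the patterns lies within another.

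The NRF1-like pattern was in the promoters of 3 of the 6 lower members with a promoter (Sdha, Sdhd and Atp5g3), in 0 of the 3 higher ones and in 20 of the 55 that did not pass (36.4%). With so few members this is a description, and a match is not a site. The matches in Sdha and Sdhd are printed with their surroundings because these members had clear falls, with the 9 bases of the pattern in capitals. Atp5g3 also fell clearly, but its match lies outside the 120 bases before its RefSeq start and is not printed. Only short stretches are shown, as annotated exons lie near or over them. The annotation used for coordinates starts Sdha at 74350280, upstream of the RefSeq start. The Sdha match at -9 thus lies within the annotated gene, and the stretch at -54 reaches into it. Positions count the pattern's first base from the RefSeq start, and both genes are on the minus strand.
Sdha at -97, chr13:74350320-74350347: gtttacagggCGCAGGCGCaccaccact
Sdha at -54, chr13:74350277-74350304: gggcgtgttgCGCAGGCGCagaatcttc
Sdha at -9, chr13:74350241-74350268: acacccgcgcgactcggtgCGCAAGCGC
Sdhd at -78, chr9:50603910-50603937: cgctggggtgCGCACGCGCggtggcagc

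For comparison, the 120 bases before the RefSeq starts of Cox7a2l (minus strand) and Ndufv3 (plus strand), both higher in NA MPs, hold none of the 3 patterns. They therefore carry no capitals. The annotation used for coordinates extends Cox7a2l further upstream than the RefSeq start.
Cox7a2l, chr17:83514334-83514453: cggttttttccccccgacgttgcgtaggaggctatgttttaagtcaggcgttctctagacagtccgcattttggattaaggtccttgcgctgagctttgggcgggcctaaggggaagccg
Ndufv3, chr17:31519995-31520114: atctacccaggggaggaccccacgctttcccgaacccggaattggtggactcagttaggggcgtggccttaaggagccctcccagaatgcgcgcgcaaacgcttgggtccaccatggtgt

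The genes around the chain were read from 11 lists, which together held 131 tested genes. None of them was higher and 27 were lower in edgeR (20.6%, against the background of 16.3%), with a median log2 fold change of -0.07. The same background, 16.3% of genes lower and 17.9% higher, applies to the counts of each list below. With GC content and length in the fit, 2 were higher and 43 lower, beside 14.0% higher and 22.5% lower among all genes in that fit.

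Assembly factors, which build the complexes and are not part of them, had 4 lower genes of 52 (7.69%, against the background of 16.3%). Aifm1, which helps complex I form, was at 450 ± 35 (SD, n = 4) normalized counts in NA MPs, against 550 ± 17 (SD, n = 5) in WT MPs (log2 -0.30 ± 0.050), and Ndufaf4 differed by -0.22. For complex IV, Coa7 differed by -0.31 and Coa5 by -0.11, and no factor of complexes II, III or V passed. The fit with GC content and length had 10 of the 52 lower, beside 22.5% of genes. Uqcc2 of complex III (-0.21) and Tmem70 of complex V (-0.16) were among them.

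Among 15 genes of electron carriers and coenzyme Q synthesis, 5 were lower. Coq6, an enzyme that modifies the ring of coenzyme Q, was at 146 ± 2.8 normalized counts in NA MPs and 203 ± 9.8 in WT MPs (log2 -0.47 ± 0.076, edgeR adjusted p = 1.41e-06). Coq4 and Coq7 differed by -0.34 and -0.25. The mobile carrier Cycs, cytochrome c, was at -0.01 and did not pass.

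For mitochondrial DNA transcription and replication, 2 of 16 genes were lower, Twnk, the helicase (-0.18), and Polg, the DNA polymerase (-0.14). The RNA polymerase Polrmt (-0.12) and Tfam (-0.08) did not pass. With GC content and length in the fit Polrmt was lower (-0.25, edgeR adjusted p = 0.000148). That fit had 5 of this list lower and 1 higher, beside 22.5% and 14.0% of genes. In RNA processing and stability, 6 of 20 were lower. Lrpprc, which stabilises mitochondrial mRNAs, was at 777 ± 43 normalized counts in NA MPs and 945 ± 43 in WT MPs (log2 -0.29 ± 0.042, edgeR adjusted p = 1.62e-07), and Fastkd2 and Rexo2 both differed by -0.28.

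Of 9 tested regulators of nuclear respiratory genes 3 were lower, namely Nfe2l2 (-0.23), Pprc1 (-0.20) and Gabpa, a subunit of GABP (-0.13). Gabpa had overlapping groups and did not pass with GC content and length in the fit (-0.09, edgeR adjusted p = 0.0859). Its gene overlaps the member Atp5j on the opposite strand. Nrf1 had a similar value (-0.12) and did not pass. In the citric acid cycle, 7 of 13 were lower, led by Idh3a (-0.25), Dld (-0.19) and Dlst (-0.17), with a median of -0.10. No carrier of ADP/ATP or phosphate and no VDAC passed among the 6 tested. The fit with GC content and length had 2 of them lower, Vdac1 (-0.10) and Slc25a5 (-0.06), beside 22.5% of genes.

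Markers of other cells moved as well. Of 10 erythroid markers 8 were tested and 7 were lower, and their summed level was 3644 to 4574 normalized counts in NA MPs and 5959 to 6458 in WT MPs. The late markers Alas2 and Slc4a1 were near 0 in both groups, at 4.31 and 3.66 in NA MPs and 5.44 and 5.46 in WT MPs. Summed pro-B and pre-B markers were at 1317 to 2331 in NA MPs and 358 to 387 in WT MPs, with all 10 higher.

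Mast cell and basophil markers summed to 3798 to 4362 against 2685 to 2945, with 5 of 7 higher and 1 lower, and neutrophil markers to 3393 to 5286 against 2805 to 3336, with 3 of 6 higher. Those of megakaryocytes summed to 1419 to 1641 against 1405 to 1573, with 1 of 6 higher and 2 lower. None of these lists had a marker at 0 in all NA samples. Their part in the results on respiratory chain genes was not tested.

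Of 15 tested immediate early genes, which respond within minutes to handling and signals, 14 were higher, with a summed level of 20390, 14077, 28810 and 30842 in NA MPs and from 3129 to 6530 in WT MPs. Among the NA samples replicate 2 was lowest and replicate 4 highest both in this sum and in the mitochondrial share. Their part in the results was not tested.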

How the data were processed

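RNA of 9 sorted MP samples (4 NA, 5 WT) was sequenced by the study with a TruSeq polyA kit, which does not mark strand. Per the labels, the authors used bcl2fastq, RSEM, DESeq2 and mm10. The aligner, annotation release and versions were not given in the sources used here. The deposited expected counts were found to be scaled: each sample's values stepped by a fixed amount (0.827 to 1.20), and after division 97.9% to 98.2% were whole within 0.1 read. These recovered counts were rounded and tested with edgeR 4.0.16 (quasi-likelihood, TMM, robust, filterByExpr with a minimum count of 10, Benjamini-Hochberg over 11953 genes, threshold 0.05) in R 4.3.3, in place of the unscaled counts the design assumed. The recovered totals limit precision for low genes. The script was tested on simulated data.

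Normalized counts are TMM-scaled. Gene positions came from GENCODE M21 (GRCm38, the same build) and promoters from RefSeq. Mitochondrial members past the threshold, up to 3 nuclear members each way per complex, and isoform families are given in full, and up to 3 called genes from each other list. Members and lists were chosen with earlier results of these data known. Alternatives were other normalizations and filters, DESeq2 1.42.0, limma 3.58.1 (pseudocounts 1 and 0.5), smooth GC content and length terms (mgcv 1.9.3), a replicate block, a threshold of 0.01 and leaving out each sample. The limma fits and the fit of the deposited values were added after seeing the data. The values of 1 tested member are not reported here on their own, though it enters every count and median.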

Additional observations from a re-analysis of the deposited data

Results flagged for a closer look

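In 14 of the 62 groups of values examined, 1 sample stood far from the others of its group, where chance flags about 1 in 20 groups, or 3.1 here. Most of these were WT MP replicate 1, and since many are measures of the same mitochondrial counts they are not separate events. WT MP replicate 1 had 8158 normalized counts of mt-Nd2 (8713 to 8789 in the other WT samples) and 13219 of mt-Nd5 (14320 to 14671). Its mitochondrially encoded members had a mean log2 normalized count of 13.23 (13.31 to 13.34) and made up 2.834% of all counts (2.966% to 3.013%) and 2.839% of the counts of tested genes (2.971% to 3.019%). In the same sample the mt-Nd genes took 26.11% of the mitochondrially encoded counts (26.93% to 27.08%), the mt-Co genes took 58.66% (57.63% to 57.90%), and the ratio of mitochondrial to nuclear member counts was 2.607 (2.828 to 2.849).

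Nuclear members were instead high in WT MP replicate 1, with 1300 normalized counts of Sdhd (1130 to 1167), 887.8 of Cox6b1 (788.1 to 814.8) and 1597 of Cox8a (1434 to 1463). WT MP replicate 3 had 2783 of Sdha (2648 to 2673) and 939.6 of Ndufa4 (1003 to 1015). NA MP replicate 2 had 7352 of Atp5a1 (7135 to 7147). Without WT MP replicate 1, Sdhd differed by -0.16 and stayed lower, and mt-Nd2 and mt-Nd5 differed by -0.34 and -0.23.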

How the results depend on the processing

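The GC content and length terms, fitted with a constant for each sample, changed most. With them 1 member was higher and 48 were lower, and 1 and 46 with a replicate block as well. These terms moved the nuclear median log2 fold change to -0.12 and, with the block, -0.11. The median of all genes moved too, from -0.00 to -0.04 without the block. Cox4i1 (-0.11, and -0.12 with the block), Cox6a1 (-0.20 and -0.20) and Cox8a (-0.19 and -0.19) changed sign, and the cause was not tested. A threshold of 0.01 left 6 lower members. Leaving out each sample gave 3638 to 3959 genes, 3 to 3 members higher, 9 to 13 lower, nuclear medians of -0.05 to -0.03, mitochondrial medians of -0.13 to -0.05 and share differences of -0.26 to -0.12 percentage points, the smallest without NA MP replicate 2. The other normalizations, filters and tools gave 3 higher and 10 to 18 lower members.

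Replicate numbers did not pair the samples, since the deviations of same-numbered samples correlated at 0.0047, 0.0020, -0.028 and 0.059. With the replicate block, 3741 genes, 3 higher and 12 lower members passed, and Cox7b lost its call. Of the members named in full, DESeq2 lost Cox7b and Atp5g1. The GC content and length terms, with their constant, moved single members by up to about 0.2 on the log2 scale (Cox6a1 from 0.00 to -0.20, Ndufa13 from 0.30 to 0.12). Depth limits the 6 untested members with few counts, and for mt-Nd4l and Ndufb4c the assignment of reads is a further limit.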
